A study of Mus musculus with 6 samples.

Results

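The tumour necrosis factor (TNF) superfamily and the NF-κB genes that its receptors act through were measured in 6 kidney samples of mice, as 49 of the 22180 genes that had a probe set of their own. Members were taken by gene symbol from the platform annotation. They were the numbered Tnfsf ligand, Tnfrsf receptor and Traf adaptor genes, with Tnf, Lta, Ltb and Ltbr, 4 NF-κB subunit genes, and 6 genes of inhibitors and regulators. By role they were 12 ligands, 21 receptors, 6 TRAF adaptors, 4 subunits and 6 inhibitors or regulators, each with 1 probe set. Of the 54 symbols of this kind in the RefSeq gene table, Nfkb1, Traf3, Tnfsf12, Tnfsf13 and Tnfsf13os had no probe set with a single symbol and were not analysed here.

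TNF superfamily ligands are trimers, on the cell surface or released from it, that cluster receptors on the target cell. Clustered receptors recruit TRAF adaptors and ubiquitin ligases, which activate the IκB kinases. In the canonical route these kinases mark IκB proteins such as that of Nfkbia for destruction and so free dimers that contain the product of Rela or Rel, while in the non-canonical route the kinase of Map3k14 drives the processing of the Nfkb2 product, which pairs with that of Relb. Several inhibitors, among them Nfkbia and Tnfaip3, are themselves NF-κB target genes and close a feedback loop. In kidney, both tubular epithelium and macrophages use this pathway after injury.

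The series concerns a reduced dose of Pals1, the polarity scaffold encoded by Mpp5, in nephrons. The labels put 3 samples in a Cre-negative group and 3 in a Cre-positive group. All came from kidneys of mice sacrificed at 4 weeks with no special treatment, on a mixed background, from crosses that the labels describe with a conditional Mpp5 knockout line and Six2-Cre transgenic mice. Six2-Cre drives recombination in nephron epithelial progenitors, while collecting duct, stroma and immune cells arise from other progenitors. The labels do not give the number of conditional Mpp5 alleles in either group, the sex, or whether each sample was a separate mouse, so the tests rest on the spread among 6 samples, part of which may be technical.

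Each sample was hybridised to 1 Affymetrix array, and the authors deposited log2 values after RMA. Array medians were 5.55 to 5.64, and the number of arrays limits the precision. Differences are Cre-positive minus Cre-negative on the log2 scale, ± SE from limma over all 22180 genes with n = 3 arrays per group. A gene rose or fell where its Benjamini-Hochberg adjusted p was under 0.05. For a single gene the exact permutation test of 3 against 3 arrays cannot go below p = 0.10. Mpp5 was lower in Cre-positive arrays (-0.61 ± 0.09, limma adjusted p = 0.00232). Kidney markers were high in every array, with the proximal phosphate transporter gene Slc34a1 at 12.15 to 13.03 and Umod at 12.48 to 12.88. The sexes were not balanced: Xist read 10.76 in Cre-negative replicate 1, 10.70 in Cre-negative replicate 2 and 4.00 to 4.29 in the other 4 arrays, which carried Y-linked transcripts. Cre-negative replicate 2 also held adrenal transcripts (Cyp11b1 at 11.10 against 3.85 to 4.24) and Cre-positive replicate 2 skeletal muscle transcripts (Myh4 at 7.72 against 3.93 to 4.86). Results were therefore also obtained with sex as a second term, with male arrays alone (3 Cre-positive against 1 Cre-negative, which is assumed to vary like the others), and without both replicates 2. No Cre-positive array carried female transcripts. The difference with the sex term is therefore also the Cre-positive mean minus Cre-negative replicate 3 alone. It equals that with male arrays alone, and the 2 settings differ in the spread used. For Mpp5 the difference was -0.68 in both settings, and its call did not hold with male arrays alone.

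The superfamily and NF-κB genes were mostly higher in Cre-positive kidneys. Of the 49 genes 21 rose, 1 fell and 27 did not pass the test. The 21 that rose were 42.9% of the members, where 10.7% of all tested genes rose and 21.8% changed in either direction. The median difference was 0.36 over the members and -0.01 over all genes tested, and 41 of 49 members had a difference above 0. The groups did not overlap for 26 members that were higher and 3 that were lower, 29 of 49, against 38.5% of all genes (18.6% higher and 19.9% lower). After median centring 18 members rose and 1 fell, while over all genes the split went from 2372 higher and 2472 lower to 1925 and 3112. Of the 29 members at or above the median gene level 17 rose, where 16.9% of all genes there did, and of the 20 below it 4 rose, where 4.47% did. The rises ran from 0.32 for Traf2 to 1.75 for Nfkbiz. The share that rose differed by role: it was largest among the inhibitors and regulators (5 of 6) and the subunits (3 of 4), with 3 of 6 TRAF adaptors, 8 of 21 receptors and 2 of 12 ligands. No test of the difference between roles was made. Fewer rose in most alternatives. The count was 9 with the sex term and 9 without both replicates 2, where the median difference was 0.38 and 0.34. With male arrays alone the median difference was also 0.38. The count was 18 with a second quantile normalization, 19 with the replicate block and 16 to 25 with 1 array left out.

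**Figure D1:**
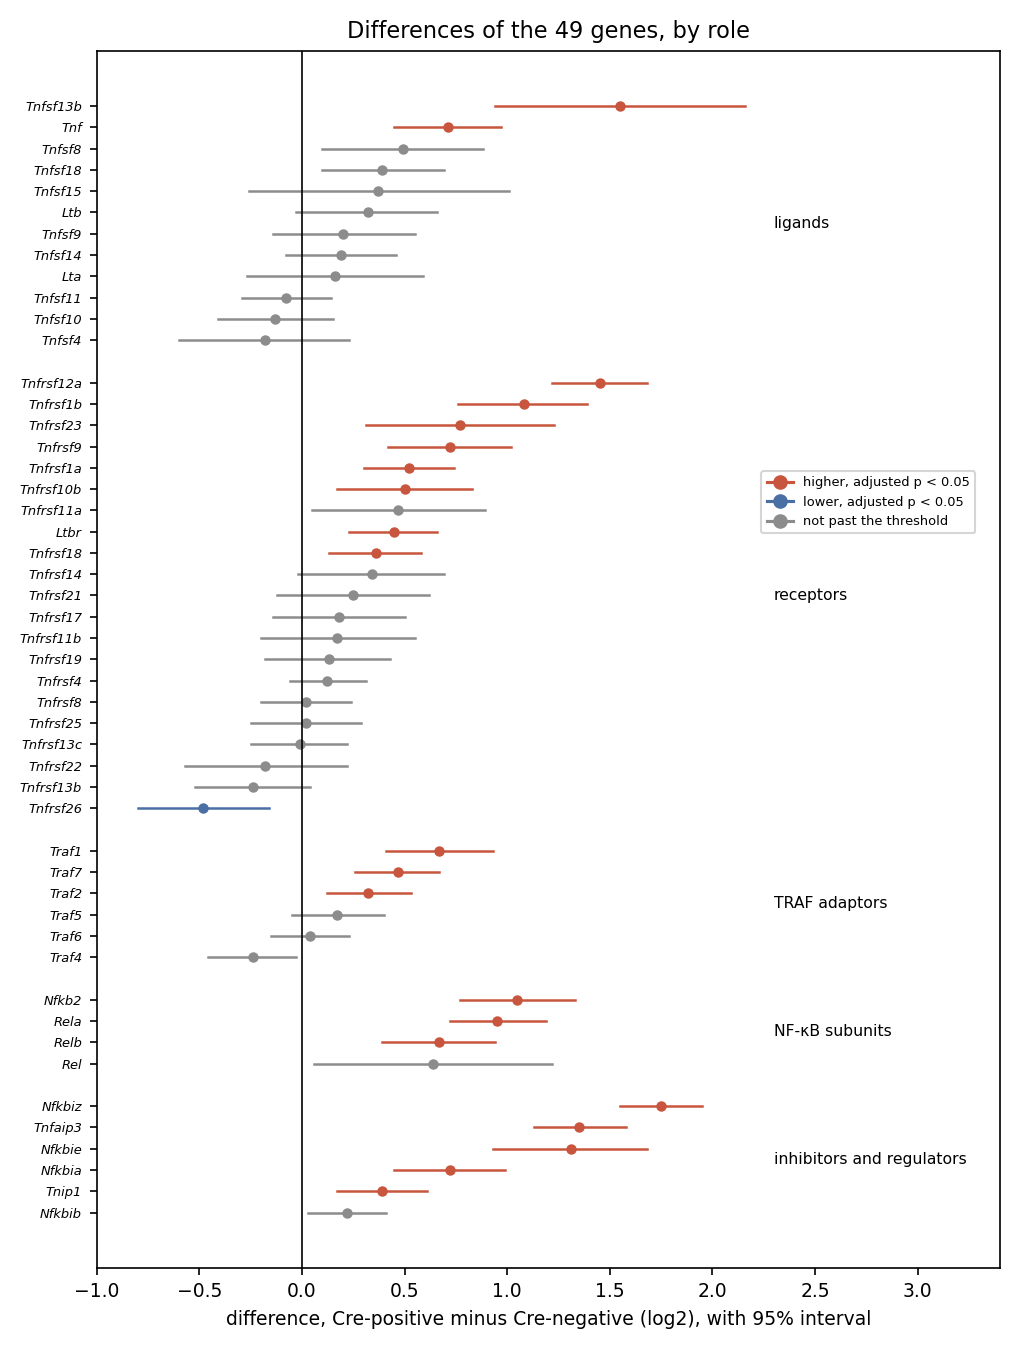
Difference of each of the 49 genes, Cre-positive minus Cre-negative on the log2 scale (x axis), grouped by role (y axis). Points are limma estimates from 3 against 3 arrays and lines their 95% intervals. Red points are the 21 genes past an adjusted p of 0.05 on the higher side, the blue point is Tnfrsf26, the 1 gene past it on the lower side, and grey points are the 27 that did not pass.

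Markers of myeloid cells, which make and bear many of these proteins, were higher in the Cre-positive samples. Of 15 macrophage and myeloid markers 12 rose, with a median difference of 1.42, and their summed level on the linear scale was 2727 to 2896 in Cre-negative and 5297, 7811 and 11970 in Cre-positive replicates 1, 2 and 3. Itgam, a defining one with a difference above the list median, was at 4.80 to 5.47 in Cre-negative and 7.20 to 7.99 in Cre-positive arrays. RMA values have no zero. Csf1r (0.31 ± 0.25), Aif1 (0.31 ± 0.17) and Cx3cr1 (0.67 ± 0.23) did not pass. Of 8 fibroblast markers 6 rose (median 0.86), while 5 of 9 endothelial and 9 of 10 proximal tubule markers fell. Over all genes tested 10.7% rose and 11.1% fell. With the sex term, with male arrays alone and without both replicates 2, respectively, 6, 5 and 6 of the 12 myeloid calls held, 1, 0 and 1 of the 6 fibroblast calls, 2, 1 and 2 of the 5 endothelial calls, and 9, 7 and 8 of the 9 proximal tubule calls. T and NK cell markers gave no call in limma's test (0 of 11, 2 being higher and 1 being lower at p under 0.05 before adjustment), and of 7 B cell markers 1 fell (Cr2, limma adjusted p = 0.0288), where 11.1% of all genes fell. The call of Cr2 was lost with the sex term, with male arrays alone, without both replicates 2, with the replicate block and without any 1 array other than Cre-negative replicate 3. The order of the Cre-positive arrays was not particular to myeloid markers. The summed levels in Cre-positive replicates 1, 2 and 3 were 8610, 11305 and 15409 for fibroblast, 5007, 5185 and 7025 for endothelial, 405, 623 and 749 for T and NK cell, 231, 262 and 303 for B cell and 170, 187 and 199 for neutrophil markers, so these 5 sums and the myeloid sum ranked the arrays alike. The nephron sums did not share this order. In Cre-positive replicates 1, 2 and 3 they were 19651, 18856 and 21163 for proximal tubule markers. For markers of other nephron segments and collecting duct they ran in reverse, at 22222, 21224 and 18094. In bulk RNA, more cells of a type and more RNA per cell cannot be told apart. The part of these shifts in the results that follow was not tested.

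Among the ligands, Tnfsf13b and Tnf rose and the other 10 did not pass the test. Tnfsf13b (probe set 17498897, chromosome 8) encodes BAFF, a survival factor for B cells that myeloid and stromal cells produce. Its level was 6.41, 6.38 and 5.94 in the Cre-negative arrays and 7.31, 7.68 and 8.40 in the Cre-positive arrays. The groups did not overlap, and the Cre-positive arrays stood in the order shared by the 6 marker sums above, myeloid, fibroblast and endothelial included. The difference was 1.55 ± 0.26, a 2.93-fold higher level (limma adjusted p = 0.00504). The markers of B cells, the main responders to BAFF, had a median difference of -0.28. The BAFF receptor genes Tnfrsf13c (-0.01 ± 0.10), Tnfrsf13b (-0.24 ± 0.12) and Tnfrsf17 (0.18 ± 0.14) did not pass the test. Most of these genes were dim. Group means of the B cell markers ran from 4.15 (Ms4a1) to 6.15 (Cd79b), both in Cre-positive arrays, below the median gene level of 6.34. Mean levels over all arrays were 4.03 for Tnfrsf13b and 4.28 for Tnfrsf17, against 6.78 for Tnfrsf13c. Whether B cells responded to BAFF was not tested. Tnf, the founding cytokine of the family, was at 5.62, 5.56 and 5.56 in Cre-negative and 6.18, 6.17 and 6.51 in Cre-positive arrays. Every Cre-positive value lay above every Cre-negative value, and the Cre-negative arrays were nearly equal. Its difference was 0.71 ± 0.11 or 1.63-fold (limma adjusted p = 0.00358). With male arrays alone the adjusted p was 0.0550 for Tnfsf13b and 0.0949 for Tnf, and without both replicates 2 it was 0.0502 for Tnfsf13b.

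The lymphotoxin genes lie beside Tnf on chromosome 17. They did not pass with it, with Ltb at 0.32 ± 0.15 and Lta at 0.16 ± 0.19. Lta was at 5.21 and 5.29 in Cre-positive replicates 1 and 2 and at 4.67 in replicate 3, the array in which Tnf was highest. Tnfsf10, which encodes the death ligand TRAIL, differed by -0.13 ± 0.12, with a 95% interval of -0.41 to 0.15. Tnfsf11, the RANK ligand gene, differed by -0.08 ± 0.09. Tnfsf4, which encodes the ligand of the T cell receptor OX40, had the lowest difference of the ligands, -0.18 ± 0.18, with groups that overlapped. Tnfsf8 (0.49 ± 0.17) and Tnfsf18 (0.39 ± 0.13), both ligands of T cell costimulation, had groups that did not overlap but did not pass, with limma adjusted p = 0.0757 and 0.0619. Tnfsf15 was at 6.89 in Cre-positive replicate 1 and at 7.79 and 7.95 in the others, and overlapped the Cre-negative range of 6.85 to 7.36. Without Cre-positive replicate 1 its difference was 0.70 and passed (limma adjusted p = 0.0294). Tnfsf18 was dim, at 3.17, 2.87 and 3.34 in Cre-negative and 3.47, 3.57 and 3.53 in Cre-positive arrays. It passed without Cre-negative replicate 3, its highest Cre-negative array, at 0.50 with limma adjusted p = 0.0354. The 2 remaining ligands, Tnfsf9 and Tnfsf14, differed by 0.20 and 0.19.

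Of the 21 receptors, 8 rose, 1 fell and 12 did not pass. Tnfrsf12a (probe set 17341540, chromosome 17) had the largest difference. It encodes the receptor of the ligand TWEAK and is induced in injured epithelium. Its values were 7.07, 6.88 and 7.00 in Cre-negative and 8.28, 8.53 and 8.48 in Cre-positive arrays. The 3 Cre-positive arrays lay close together, each over 1 log2 unit above every Cre-negative array. Replicate 1 was the lowest of them, as in the 6 marker sums above, while replicates 2 and 3 differed little, at 8.53 and 8.48. The difference was 1.45 ± 0.10 or 2.73-fold (limma adjusted p = 0.000122), and it passed under all 15 alternatives (limma adjusted p up to 0.0113).

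The receptors of TNF itself both rose. Tnfrsf1b encodes TNF receptor 2, which is most abundant on leukocytes and endothelium, and Tnfrsf1a encodes TNF receptor 1, which most cell types carry. Tnfrsf1b was at 6.95, 6.77 and 6.85 in Cre-negative arrays, at 7.65 and 8.16 in Cre-positive replicates 1 and 3, and between these in replicate 2. Tnfrsf1a was at 8.65, 8.74 and 8.68 against 9.06, 9.27 and 9.31. Neither gene's groups overlapped, and in both the 3 Cre-positive arrays were ordered as those 6 marker sums were. The differences were 1.08 ± 0.14 (2.11-fold, limma adjusted p = 0.00142) for Tnfrsf1b and 0.52 ± 0.10 (1.44-fold, limma adjusted p = 0.00663) for Tnfrsf1a; the difference between the receptors was not tested. The adjusted p for Tnfrsf1a was 0.0721 with the sex term and 0.0785 without both replicates 2, and with male arrays alone the values were 0.0516 for Tnfrsf1b and 0.140 for Tnfrsf1a.

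Tnfrsf9, which encodes the costimulatory receptor 4-1BB, was at 5.59, 5.25 and 5.60 in Cre-negative and 6.37, 6.10 and 6.11 in Cre-positive arrays. It rose by 0.72 ± 0.13 (limma adjusted p = 0.00627) and was highest in Cre-positive replicate 1, where those 6 marker sums were lowest. Ltbr, the lymphotoxin beta receptor gene, was likewise highest there, at 9.40 against 9.36 and 9.18, and at 8.86, 8.91 and 8.82 in Cre-negative arrays. Its difference was 0.45 ± 0.09 (limma adjusted p = 0.0111). Tnfrsf10b, the mouse TRAIL death receptor gene and a p53 target, rose by 0.50 ± 0.14 (limma adjusted p = 0.0425), and Tnfrsf18, the receptor of the Tnfsf18 ligand, by 0.36 ± 0.10 (limma adjusted p = 0.0338). These 4 calls did not hold with the sex term (adjusted p of 0.100 for Tnfrsf9, 0.0790 for Ltbr, 0.393 for Tnfrsf10b and 0.240 for Tnfrsf18). Those of Tnfrsf10b and Tnfrsf18 were also lost without Cre-negative replicates 1 or 2 or Cre-positive replicates 2 or 3, with adjusted p of 0.0650 to 0.134, that of Tnfrsf18 also without Cre-negative replicate 3 (0.0797), and both after median centring (0.0553 and 0.0559).

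Tnfrsf22, Tnfrsf23 and Tnfrsf26 are closely similar mouse genes on chromosome 7, the first 2 encoding decoy receptors of TRAIL, and moved apart. Tnfrsf23 was at 6.52, 6.64 and 6.37 in Cre-negative and 7.03, 7.05 and 7.77 in Cre-positive arrays, a rise of 0.77 ± 0.20 (limma adjusted p = 0.0279). Tnfrsf26 was at 5.58, 5.84 and 5.87 against 5.12, 5.17 and 5.55, and fell by 0.48 ± 0.14 on the log2 scale (limma adjusted p = 0.0415). The groups did not overlap for either gene; for Tnfrsf26 they nearly met, at 5.58 and 5.55. Tnfrsf22 did not pass (-0.18 ± 0.17). Because the sequences are alike, the assignment of each probe set to 1 of these genes is uncertain. Both calls were lost with the sex term (adjusted p = 0.106 and 0.131), that of Tnfrsf23 without any 1 of the 3 Cre-negative arrays (0.0541 to 0.0896), and that of Tnfrsf26 without Cre-negative replicate 2 or 3 or Cre-positive replicate 1 or 2 (0.110 to 0.127).

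Of the receptors that did not pass, Tnfrsf11a, which encodes RANK, and Tnfrsf14, which encodes the herpesvirus entry mediator, were lower in Cre-positive replicate 1 than in the other Cre-positive arrays. Tnfrsf11a was at 6.67 there and at 7.38 and 7.24 in the other Cre-positive arrays, and Tnfrsf14 at 5.50 against 6.04 and 6.06. Without that array their differences were 0.69 and 0.52 and passed (limma adjusted p = 0.00670 and 0.00910). Leaving out the lowest Cre-positive array raises the difference and narrows the spread by itself. Tnfrsf21, which encodes death receptor 6, showed the opposite order, at 11.79, 11.47 and 11.11 in Cre-positive replicates 1 to 3 against 11.15 to 11.25 in Cre-negative arrays. Its difference was 0.25 ± 0.16, and without Cre-positive replicate 3 it was 0.42 and passed (limma adjusted p = 0.0445). Tnfrsf11b, the osteoprotegerin gene, differed by 0.17 ± 0.16 and Tnfrsf19 by 0.13 ± 0.13. The T cell receptors Tnfrsf4, Tnfrsf8 and Tnfrsf25 lay between 0.02 and 0.12, with 95% intervals that stayed between -0.25 and 0.31.

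**Figure D2:**
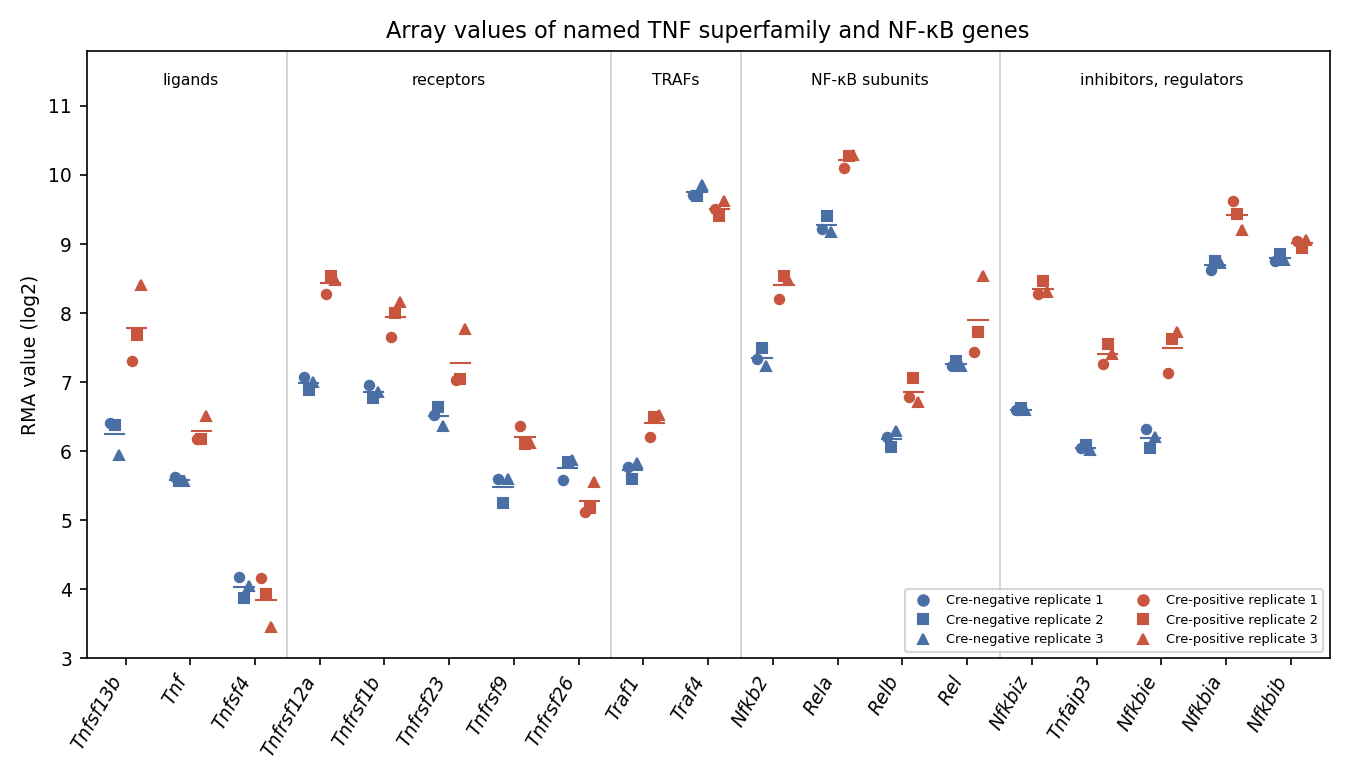
RMA values on the log2 scale (y axis) of the 19 genes named by rule, in the 3 Cre-negative arrays (blue) and the 3 Cre-positive arrays (red), with symbols for the replicates and short lines for the group means. Tnfrsf12a, Nfkbiz and Tnfaip3 show 3 tight Cre-positive values above the Cre-negative ones, whereas Tnfsf13b and Rel spread widely among Cre-positive arrays.

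TRAF adaptors carry the signal from the receptor tails. Traf1, itself an NF-κB target gene, was at 5.77, 5.60 and 5.82 in Cre-negative and 6.21, 6.49 and 6.52 in Cre-positive arrays. Its difference was 0.67 ± 0.11 or 1.59-fold (limma adjusted p = 0.00499). Traf7 rose by 0.47 ± 0.09 (limma adjusted p = 0.00805), and Traf2, the adaptor of the TNF receptors, by 0.32 ± 0.09 (limma adjusted p = 0.0372). Groups did not overlap for any of these 3 genes. Traf6, which serves the toll-like and interleukin-1 receptors and RANK, differed by 0.04 ± 0.08, with a 95% interval of -0.15 to 0.23, and Traf5 by 0.17 ± 0.10. Traf4, an adaptor of epithelial cells, was lower in every Cre-positive array (9.50, 9.41 and 9.62 against 9.71, 9.69 and 9.85) but did not pass, at -0.24 ± 0.09 with limma adjusted p = 0.111. The 3 calls were lost with the sex term (adjusted p = 0.0820 for Traf1, 0.0696 for Traf7 and 0.140 for Traf2). That of Traf2 was also lost after median centring (0.0604) and without any 1 array other than Cre-positive replicate 1 (0.0624 to 0.119).

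All 4 measured NF-κB subunit genes were higher in each Cre-positive array than in any Cre-negative array, as were 18.6% of all genes. Of these 4 genes 3 passed the test, where 10.7% of all genes rose. Nfkb2, the precursor subunit of the non-canonical route, was at 7.33, 7.50 and 7.23 in Cre-negative and 8.20, 8.54 and 8.48 in Cre-positive arrays. Rela, the main transactivating subunit of the canonical route, was at 9.22, 9.41 and 9.17 against 10.10, 10.28 and 10.29. In both genes the gap between the groups exceeded the range within either group. The differences were 1.05 ± 0.12 for Nfkb2 (2.07-fold, limma adjusted p = 0.000904) and 0.95 ± 0.10 for Rela (1.94-fold, limma adjusted p = 0.000678). Both passed under all 15 alternatives, with limma adjusted p up to 0.0257 and 0.0222. Relb, the partner of the processed Nfkb2 product, was at 6.20, 6.06 and 6.29 against 6.78, 7.06 and 6.71, a rise of 0.67 ± 0.12 (limma adjusted p = 0.00595).

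Rel, the subunit best known from lymphoid and myeloid cells, spread widely within the Cre-positive group. It was at 7.23, 7.30 and 7.23 in Cre-negative arrays and at 7.43, 7.72 and 8.54 in Cre-positive arrays. Replicate 3, with the highest of those 6 marker sums, stood well above the other 2. Over all arrays the difference of 0.64 ± 0.25 did not pass (limma adjusted p = 0.114), with a 95% interval of 0.06 to 1.22. Without Cre-positive replicate 1 it was 0.88 and passed (limma adjusted p = 0.0341). The call of Relb was lost with the sex term (adjusted p = 0.0968) and without both replicates 2 (0.0624).

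Inhibitors and feedback regulators had the highest median difference of the 5 roles, 1.01. Nfkbiz (probe set 17330967, chromosome 16) encodes IκBζ, a nuclear cofactor of the IκB family that is made on stimulation. It was at 6.59, 6.62 and 6.60 in Cre-negative and 8.28, 8.47 and 8.30 in Cre-positive arrays. The 3 arrays of each group were nearly equal. Its difference of 1.75 ± 0.09, or 3.36-fold, was the largest of the 49 genes (limma adjusted p = 4.19e-05). Tnfaip3, which encodes a ubiquitin-editing enzyme that shuts off signalling from TNF receptors, was at 6.05, 6.09 and 6.02 against 7.26, 7.55 and 7.41. It rose by 1.35 ± 0.10 or 2.56-fold (limma adjusted p = 0.000132). Nfkbie, which encodes the cytoplasmic inhibitor IκBε, was at 6.32, 6.04 and 6.21 against 7.13, 7.63 and 7.72, a rise of 1.31 ± 0.16 or 2.47-fold (limma adjusted p = 0.00127). These 3 genes passed under all 15 alternatives, with limma adjusted p up to 0.00604, 0.0131 and 0.0456.

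Nfkbia, which encodes the prototype inhibitor IκBα, was at 8.63, 8.75 and 8.73 in Cre-negative and 9.62, 9.43 and 9.20 in Cre-positive arrays. Unlike Rel and Tnfsf13b it was highest in Cre-positive replicate 1, where those 6 marker sums were lowest. It rose by 0.72 ± 0.12 or 1.64-fold (limma adjusted p = 0.00420). Tnip1, which encodes a partner of the Tnfaip3 enzyme, rose by 0.39 ± 0.10 (limma adjusted p = 0.0229). Nfkbib, the gene of the inhibitor IκBβ, was at 8.76 to 8.85 in Cre-negative and 8.94 to 9.06 in Cre-positive arrays and did not pass (0.22 ± 0.08, limma adjusted p = 0.101). The calls of Nfkbia and Tnip1 were lost with the sex term (adjusted p = 0.0599 and 0.0752) and without both replicates 2 (0.0576 and 0.119). That of Tnip1 was lost also without Cre-negative replicates 1 or 3 or Cre-positive replicate 2 (0.0740 to 0.0814).

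Because NF-κB dimers bind κB elements in the promoters of their own inhibitors and subunits, the RefSeq promoter windows (GRCm38.p6, 250 bases before to 50 after each start, 300 in all) were searched on both strands for κB-type letters, namely GGG, then any 3 bases, then TTCC. Overlapping matches on the 2 strands were counted apart. Windows were at hand for 41 of the 49 genes, not for Tnfsf9, Tnfsf4, Tnfrsf10b, Tnfrsf11b, Tnfrsf22, Tnfrsf26, Relb and Nfkbiz. Of the 41 genes 12 held a match in at least 1 window, or 29.3%, against 6.3% of all 27025 genes in the table, and 31.2% of the members' windows held one against 5.6% of all 32851 windows. Among members that rose, 8 of 18 held a match (Nfkb2, Nfkbia, Nfkbie, Tnfaip3, Tnip1, Tnfrsf9, Traf2 and Traf7), and among those that did not pass, 4 of 23 (Ltb, Rel, Tnfrsf25 and Traf5). These counts are descriptions of letters and not of binding. They do not separate the rise from the role. Nfkb2, Nfkbia, Nfkbie, Tnfaip3 and Tnip1 are subunit, inhibitor or regulator genes, the roles with the largest share that rose, as is Rel, which did not pass. The share with a match among all tested genes that rose was not obtained. The 250 bases before the outermost start are shown for the 3 inhibitor genes Nfkbia, Nfkbie and Tnfaip3, whose rise is described above, for Rel, the subunit gene that did not pass, and for Tnfrsf12a, the receptor gene with the largest rise, which had no match in its window. Each runs 5′ to 3′ in the direction of transcription, with the matched letters in capitals (a match on the other strand reads GGAA, any 3 bases, CCC). Nfkbia is from chr12:55492648-55492897, minus strand; Nfkbie from chr17:45555450-45555699, plus strand. Tnfaip3 is from chr10:19015411-19015660, minus strand, Rel from chr11:23770970-23771219, minus strand, and Tnfrsf12a from chr17:23677450-23677699, minus strand.
Nfkbia: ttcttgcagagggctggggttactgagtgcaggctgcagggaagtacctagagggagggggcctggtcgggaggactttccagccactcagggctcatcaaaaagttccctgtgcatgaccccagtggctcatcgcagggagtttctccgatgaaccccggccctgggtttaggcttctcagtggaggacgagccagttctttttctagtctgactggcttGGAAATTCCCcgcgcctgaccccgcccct
Nfkbie: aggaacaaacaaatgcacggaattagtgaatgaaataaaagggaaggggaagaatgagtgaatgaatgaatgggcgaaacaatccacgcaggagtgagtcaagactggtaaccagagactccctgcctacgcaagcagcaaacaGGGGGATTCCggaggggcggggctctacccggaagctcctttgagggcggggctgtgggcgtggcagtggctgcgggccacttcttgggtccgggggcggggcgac
Tnfaip3: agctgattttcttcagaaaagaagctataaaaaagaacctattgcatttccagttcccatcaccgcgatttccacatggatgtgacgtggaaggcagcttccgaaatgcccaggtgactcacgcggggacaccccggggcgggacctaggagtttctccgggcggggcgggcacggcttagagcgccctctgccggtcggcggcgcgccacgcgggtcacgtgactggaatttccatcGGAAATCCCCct
Rel: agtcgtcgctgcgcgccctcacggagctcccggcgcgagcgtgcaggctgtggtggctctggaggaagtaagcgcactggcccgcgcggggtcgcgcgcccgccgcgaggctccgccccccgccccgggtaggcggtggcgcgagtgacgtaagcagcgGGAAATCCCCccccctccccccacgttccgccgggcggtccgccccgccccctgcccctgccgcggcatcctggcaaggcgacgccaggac
Tnfrsf12a: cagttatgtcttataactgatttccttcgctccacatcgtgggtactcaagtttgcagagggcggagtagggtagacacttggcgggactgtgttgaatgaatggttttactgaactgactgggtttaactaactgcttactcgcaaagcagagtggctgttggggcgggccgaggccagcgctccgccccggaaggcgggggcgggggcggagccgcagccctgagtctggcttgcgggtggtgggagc
Counted from the start, the capitals began at -29 in Nfkbia, -106 in Nfkbie, -12 in Tnfaip3 and -91 in Rel. Tnfaip3 held 2 more matches outside the stretch shown, 1 after this start at 34 and 1 in the window of another start at -90. The 10 letters in Rel and at -12 in Tnfaip3 were the same, GGAAATCCCC, while the Cre-positive values of Rel ran from 7.43 to 8.54 and those of Tnfaip3 from 7.26 to 7.55.

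**Figure D3:**
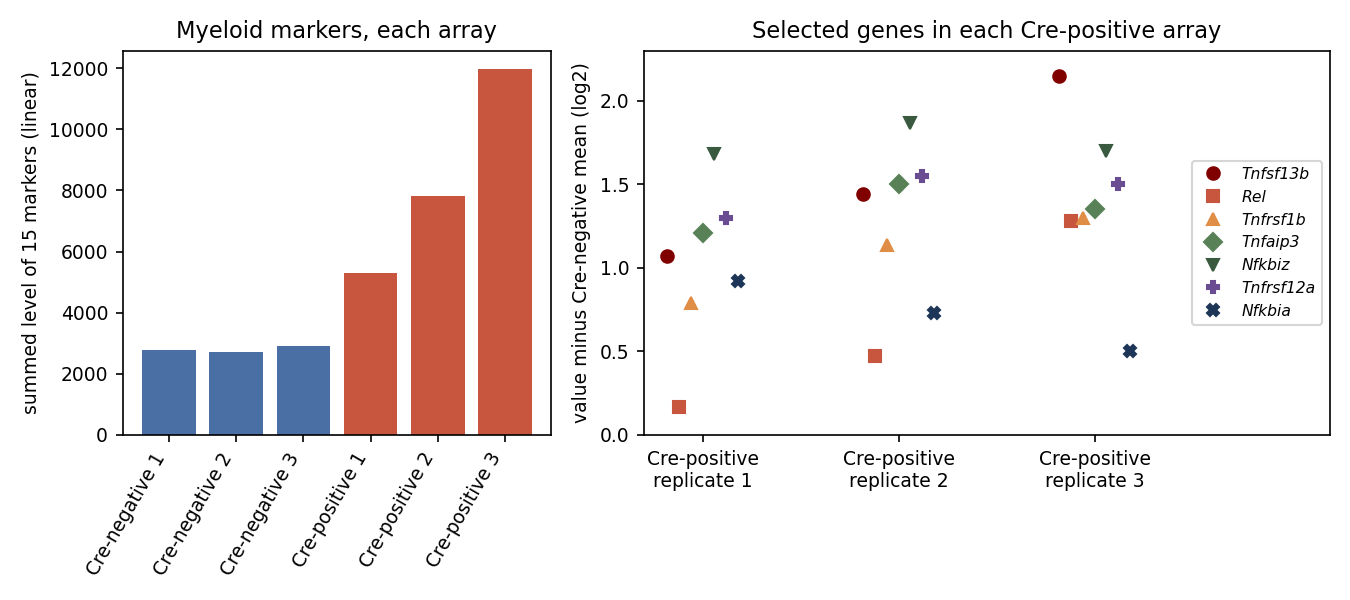
Left, summed linear level of 15 myeloid markers in each array, with bars from 0, which was 2727 to 2896 in Cre-negative arrays and 5297, 7811 and 11970 in Cre-positive replicates 1, 2 and 3. Right, value of 7 genes in each Cre-positive array minus the mean of the 3 Cre-negative arrays (log2). Tnfsf13b, Rel and Tnfrsf1b were highest in replicate 3, Nfkbia in replicate 1, and Nfkbiz, Tnfaip3 and Tnfrsf12a in replicate 2.

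The members thus differed in how they varied among the Cre-positive arrays. 28 of the 49 were highest in replicate 3, or 57.1%, against 34.9% of all genes, and 31 were lowest in replicate 1, or 63.3%, against 32.5%. Of the 21 genes that rose, 11 ranked the 3 Cre-positive arrays as the myeloid sum and the other 5 sums did, or 52.4%, against 26.6% of all 2372 genes that rose. In reverse, as in the sum of other nephron and collecting duct markers, the arrays were ranked by 2 (Nfkbia and Ltbr), or 9.52%, against 19.3%. Which cell type, if any, this order goes with cannot be told apart. The ranks took any gap, however small. Rela, at 10.28 and 10.29 in replicates 2 and 3, counted as following the order, and Tnfrsf12a, at 8.53 and 8.48, did not. The 7 genes of the plot were chosen after their values were seen. Relative to the Cre-negative mean, Rel stood at 0.17, 0.47 and 1.28 in Cre-positive replicates 1, 2 and 3, and Tnfsf13b at 1.07, 1.44 and 2.15. Nfkbiz stood at 1.68, 1.87 and 1.70. Tnfaip3 stood at 1.21 in replicate 1 and 1.35 in replicate 3, and Tnfrsf12a at 1.30 in replicate 1 and 1.55 in replicate 2, and both were highest in replicate 2. Nfkbia stood at 0.92, 0.73 and 0.50. Without Cre-positive replicate 1, 25 members rose and none of the 21 was lost, and without replicate 3, 19 rose.

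Other genes of the pathway were taken from lists. Among 11 superfamily genes under other symbols, 2 rose and the rest did not pass, against 10.7% of all genes that rose. They were Eda2r (0.61 ± 0.10, limma adjusted p = 0.00400), the receptor of ectodysplasin, which lies on the X chromosome, and Relt (0.50 ± 0.11, limma adjusted p = 0.0125), an orphan receptor. Cd40, the costimulatory receptor of B cells and macrophages, was at 0.42 ± 0.17 and Fasl, the Fas ligand gene, at 0.15 ± 0.08. The list median was 0.08. Both calls were lost with the sex term (adjusted p = 0.0719 for Eda2r and 0.191 for Relt) and without both replicates 2 (0.0608 and 0.140). Relt did not pass without Cre-negative replicate 1 or 2 (0.0542 and 0.0516), and Cd40 passed without Cre-positive replicate 1 (0.58, adjusted p = 0.0388).

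Of 22 measured adaptors, ubiquitin ligases and kinases between receptors and NF-κB, 7 rose and 15 did not pass, with a median of 0.17. The 7 were 31.8% of the list, where 10.7% of all genes rose and the median over all genes was -0.01. The 4 of smallest p were Birc3 and Birc2, neighbouring and closely similar genes of ubiquitin ligases in the TNF receptor complexes, Map3k14, the kinase of the non-canonical route, and Ikbke, an IκB-kinase-related kinase. Birc3 was at 6.84, 7.01 and 7.07 in Cre-negative and 8.28, 8.34 and 8.18 in Cre-positive arrays, a rise of 1.29 ± 0.10 or 2.45-fold (limma adjusted p = 0.000149). The rises of Birc2, Ikbke and Map3k14 were 0.90 ± 0.13, 0.83 ± 0.13 and 0.74 ± 0.11. The other 3 genes that rose did so by 0.38 to 0.41. The call of Map3k14 was lost with the sex term (adjusted p = 0.0520) and that of Birc2 with male arrays alone (0.0790). Both other IκB-type genes rose, namely Bcl3, a nuclear partner of NF-κB dimers (1.25 ± 0.15, limma adjusted p = 0.00116), and Nfkbid (0.63 ± 0.11, limma adjusted p = 0.00544). The call of Nfkbid was lost with the sex term (0.0946) and without both replicates 2 (0.0851), and that of Bcl3 with male arrays alone (0.0511).

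Of 29 textbook NF-κB target genes outside the superfamily, 12 rose, 1 fell and 16 did not pass, with a median of 0.53. The 12 that rose were 41.4% of the list, against 42.9% of the members and 10.7% of all genes. The list was chosen with earlier results of these data known, so its share is a description and not independent support. The smallest p-values were those of Lcn2, which encodes an iron-siderophore-binding protein of injured tubules (3.70 ± 0.12), the neutrophil chemoattractant gene Cxcl1 (1.87 ± 0.12), the monocyte chemoattractant gene Ccl2 (3.16 ± 0.20) and the adhesion molecule gene Vcam1 (2.94 ± 0.21), with limma adjusted p of 1.63e-05 to 0.000134. Sod2, which encodes mitochondrial superoxide dismutase and is also high in resting tubules, went the other way. It was at 11.95, 11.86 and 11.93 in Cre-negative and 11.07, 11.12 and 11.12 in Cre-positive arrays, and fell by 0.81 ± 0.08 on the log2 scale (limma adjusted p = 0.000469).

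**Figure D4:**
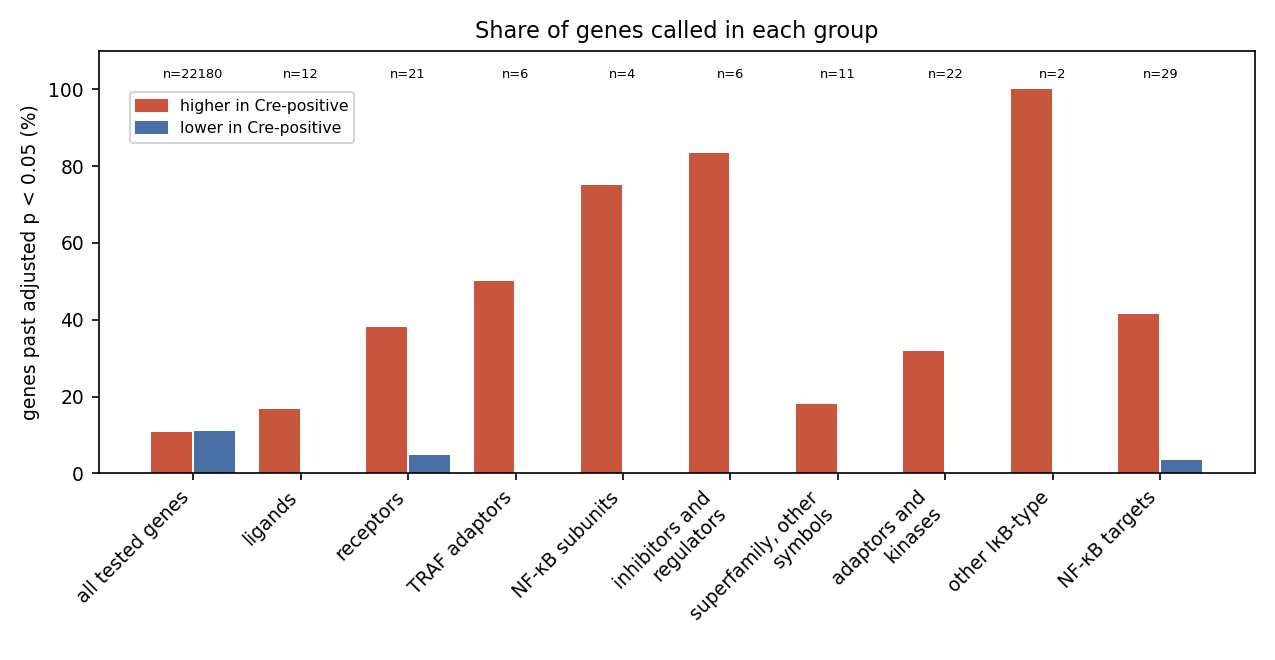
Percent of genes (y axis) past a limma adjusted p of 0.05, higher (red) or lower (blue) in Cre-positive arrays, for all 22180 genes, the 5 roles of the members and 4 lists of other pathway genes, with the number of genes above each pair of bars. Over all genes 10.7% were higher and 11.1% lower, while the inhibitors and regulators (5 of 6) and subunits (3 of 4) had the highest shares among the members' roles and gave no lower call.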

How the data were processed

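The authors deposited log2 values after RMA for 6 arrays. Per the submitters' processing notes, RMA and Partek were used, without versions. That the scale is log2 follows from RMA's usual output and from values of 1.89 to 13.59. RMA compresses differences of dim probe sets. The genome build was not given in the sources used here, nor was the annotation. The table held 41345 rows, of which 23521 had 1 gene symbol in GEO's platform annotation, 1814 several and 16010 none. The row with the highest mean over 6 arrays stood for a gene, leaving 22180 genes. No filter on low values was applied, and 20 of the 49 members lay below the median gene (6.34).

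The test was limma 3.58.1 under R 4.3.3 (lmFit, eBayes, two-sided, no covariate, Benjamini-Hochberg over 22180 genes, threshold 0.05). It was checked on simulated data. Members and lists were chosen with earlier results of these data known. Named were all subunit and IκB genes, Tnf, Tnfaip3, members called with a difference of at least 0.58, each role's largest rise and fall, and the 4 smallest p-values of each pathway list with any member that fell while the list median rose. Other members' values, Ltbr, Traf2 and the order of arrays included, were chosen after they were seen. Same-numbered arrays did not deviate together (correlations of -0.042 to 0.030), so the number was no block. The 15 alternatives were likewise chosen with the sex imbalance and the transcripts of other tissues known. Sex was read from Xist and Uty. Coordinates are those of the RefSeq table, not of the array.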

Additional observations from a re-analysis of the deposited data

How the results depend on the processing

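Of the 22 calls among the members, those of Tnfrsf12a, Nfkb2, Rela, Nfkbiz, Tnfaip3 and Nfkbie held under all 15 alternatives. With the sex term 9 members rose and 0 fell (limma, 2 lower at an unadjusted p under 0.05), with 909 and 1121 over all genes. By role and list, receptors gave 2 and 0 (higher and lower), TRAF adaptors 0 higher (3 at an unadjusted p under 0.05), inhibitors 3, superfamily genes of other symbols 0 (2 unadjusted), adaptors and kinases 3 and other IκB-type genes 1. With male arrays alone 6 members rose and 0 fell (1 unadjusted), with 510 and 591 over all genes. Ligands then gave 0 (3 unadjusted), receptors 1 and 0, TRAF adaptors 0 (3 unadjusted), inhibitors 3, superfamily genes of other symbols 0 (2 unadjusted), adaptors and kinases 2 and other IκB-type genes 0 (2 unadjusted). Without both arrays with transcripts of other tissues 9 members rose and 0 fell (0 unadjusted), with 879 and 974 over all genes, and ligands gave 1, receptors 3 and 0, TRAF adaptors 0 (4 unadjusted), inhibitors 3, superfamily genes of other symbols 0 (2 unadjusted), adaptors and kinases 4 and other IκB-type genes 1. These 3 settings use fewer arrays or more terms. The sex term and male arrays alone give the same differences, both against Cre-negative replicate 3 alone, and are not separate checks of them. The cause of the lost calls was not tested. The setting without genes below the median level tested fewer genes. It removed called genes such as Tnfrsf26, Tnf, Eda2r, Relt and Nfkbid, so their calls were not retested there. Among the genes kept, 0 members fell (1 unadjusted) and 0 receptors fell (0 unadjusted). In that setting 1 ligand, 1 other IκB-type gene and 0 superfamily genes of other symbols (1 unadjusted) rose. Nfkbib passed there (limma adjusted p = 0.0438).

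Leaving out 1 array gave 16 to 25 members higher and 0 to 1 lower, and 1481 to 2270 higher over all genes, the lowest count being that without Cre-negative replicate 1. Receptors gave 5 to 10 higher, with 5 without Cre-negative replicate 1 and without Cre-negative replicate 2, and 0 to 1 lower. Superfamily genes of other symbols gave 1 to 3 higher, and adaptors and kinases 0 to 1 lower. Tnfsf15, Rel, Tnfrsf11a, Tnfrsf14, Tnfrsf21 and Cd40 each passed only without the Cre-positive array in which they were lowest. Leaving out that array raises the difference and narrows the spread, so these passes are not separate support for a rise. With the replicate block, 19 members rose and 1 fell. The block ended the calls of Tnfrsf23 (limma adjusted p = 0.0539), Tnfrsf18 (0.0629) and Traf2 (0.0735) and added Tnfsf8 (0.0221). Median centring and a second quantile normalization each gave 18 members higher, with a median of 0.30 and 0.31. Signs turned only for differences near 0 that never passed. Tnfsf11 was at 0.01, Tnfrsf17 at -0.05, Tnfrsf13c at 0.10 and Tnfrsf25 at -0.14 with the sex term and with male arrays alone. Tnfrsf8 was at -0.01 after the second quantile normalization, -0.03 after median centring and -0.04 without both replicates 2. Tnfrsf25 was at -0.06, -0.04 and -0.12 in those 3 settings, and Traf6 at -0.02 after median centring. Without 1 array, Tnfsf4 ranged from -0.34 to 0.01, Tnfrsf8 from -0.04 to 0.07, Tnfrsf25 from -0.07 to 0.10 and Tnfrsf13c from -0.08 to 0.05.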
